A study of Mus musculus with 6 samples.

Results

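Tight junctions seal the space between neighbouring epithelial cells, and the genes described here encode their claudins, their MARVEL proteins, a cytoplasmic scaffold and a junctional adhesion molecule. The 9 genes, Cldn1, Cldn2, Cldn3, Cldn5, Cldn11, Ocln, Marveld2, Tjp1 and F11r, were picked by symbol from the 24354 genes of a table of translating mRNA in mouse choroid plexus (ChP), and all 9 are in the table. Translating ribosome affinity purification (TRAP) recovers ribosomes that carry a tagged subunit with the mRNA on them, here EGFP:L10a in mice that carry Foxj1:cre, a genotype that both ages share. Groups were 3 adult samples, from mice aged 60 days by the labels, and 3 samples from embryonic day 16.5 (E16.5), and the labels name no treatment. By the paper's methods each sample was a pool from 3 mice or 3 litters, whereas the series text gives 3 mice per age, so p-values measure the spread between these samples. The Foxj1 promoter is active in cells with motile cilia, which include ChP epithelial cells and also the ependyma. The comparison addresses how the mRNAs on ribosomes differ between the embryonic and the adult ChP.

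The ChP epithelium separates blood from cerebrospinal fluid (CSF), since its capillaries are leaky and the barrier lies at the tight junctions between the epithelial cells. Claudins are tetraspan membrane proteins whose strands set which solutes pass between cells. Claudin-2 forms pores for small cations and water, while claudin-1 and claudin-3 are sealing claudins. Occludin (Ocln) and tricellulin (Marveld2) are MARVEL proteins, the first at contacts of cell pairs and the second where 3 cells meet. ZO-1 (Tjp1) ties the strands to actin, and JAM-A (F11r) is an immunoglobulin-like adhesion protein of the same junction.

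The regions just upstream of 4 genes are shown because these genes had the highest mean FPKM of the 9. FPKM scales fragments to transcript length and to library size, so levels can be compared between genes. Each sequence holds the 250 bases before the RefSeq start site on GRCm38.p6, written 5′ to 3′ on the strand of the gene, with capitals for the motifs searched. These were TATAAA (the TATA box), GGGCGG (the GC box), CCAAT (the CCAAT box), CACCTG (the E-box bound by Snail) and AACCGGTT (the grainyhead-like site), each on both strands.
Cldn2, chrX:139800558-139800807, plus strand: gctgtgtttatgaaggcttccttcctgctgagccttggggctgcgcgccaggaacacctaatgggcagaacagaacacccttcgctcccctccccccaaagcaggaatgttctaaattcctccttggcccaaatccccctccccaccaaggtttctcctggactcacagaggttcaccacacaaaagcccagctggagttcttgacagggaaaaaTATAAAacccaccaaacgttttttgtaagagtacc
Cldn1, chr16:26371840-26372089, minus strand: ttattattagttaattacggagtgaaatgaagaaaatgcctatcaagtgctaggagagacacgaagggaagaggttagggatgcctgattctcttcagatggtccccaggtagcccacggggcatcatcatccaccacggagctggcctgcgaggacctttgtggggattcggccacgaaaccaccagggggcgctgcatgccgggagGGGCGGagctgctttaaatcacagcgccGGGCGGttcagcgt
Ocln, chr13:100552719-100552968, minus strand: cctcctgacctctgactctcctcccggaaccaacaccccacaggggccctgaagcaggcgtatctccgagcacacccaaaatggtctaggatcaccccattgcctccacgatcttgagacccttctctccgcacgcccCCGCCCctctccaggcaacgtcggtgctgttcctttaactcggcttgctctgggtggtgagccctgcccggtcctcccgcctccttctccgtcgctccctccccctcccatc
Tjp1, chr7:65371245-65371494, minus strand: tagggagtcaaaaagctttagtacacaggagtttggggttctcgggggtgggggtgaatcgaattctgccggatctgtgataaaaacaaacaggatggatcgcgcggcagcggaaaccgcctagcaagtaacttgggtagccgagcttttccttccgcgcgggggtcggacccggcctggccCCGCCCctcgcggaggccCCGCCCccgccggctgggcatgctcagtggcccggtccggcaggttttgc
The Cldn2 sequence held 1 TATAAA, which begins 35 bases before the start site, had 4 CpG dinucleotides and was 52% G and C. Over 27025 mouse promoters of this length, 13% held TATAAA on either strand, the median G and C content was 52% and the median number of CpG was 6. The sequences of Cldn1 and Tjp1 each held 2 GC boxes, with 14 and 22 CpG, and that of Ocln held 1 GC box with 14 CpG. Of all promoters 32.9% held a GC box. Ocln has a second RefSeq start site, whose upstream sequence held 2 copies of the Snail E-box letters, which 17.1% of promoters hold. AACCGGTT was found upstream of none of the 9 genes and in 0.122% of promoters. A match of letters describes the sequence and does not show that a factor binds.

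Libraries of the adult samples were shallower and less alike than those of the E16.5 samples. The mapped reads are not given with the table, and depth was estimated from the spacing of low values, whose smallest step is 1 read. This placed the E16.5 libraries at 4.16 to 5.17 times and adult replicates 1 and 2 at 1.31 and 2.92 times the depth of adult replicate 3. Among 11601 genes with a mean FPKM above 1, 10.3% to 36.4% were listed at 0 in an adult sample and 3.68% to 4.02% in an E16.5 sample. Spearman's correlation across these genes, which are not independent replicates, was 0.603 to 0.722 between adult samples and 0.836 to 0.852 between E16.5 samples. Mir6236, annotated as a microRNA gene, took 32.7% to 51.7% of summed FPKM in the adult samples and 13.3% to 15.0% at E16.5. Of 12 markers of ChP epithelium, Folr1 lay between 465 and 1048 FPKM over the 6 samples. Prlr, at 0.541 to 2.38 FPKM (437 to 527 in adult), Kl, at 6.03 to 8.94 FPKM (503 to 628 in adult), and Ttr were low at E16.5. Every other marker of the 12 lay between 59.4 FPKM (Htr2c) and 1184 FPKM (Kcne2) in the E16.5 samples. The epithelial marker Ttr had 0 FPKM at E16.5 throughout, so an exact 0 in this table can be a failed estimate.

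Cldn2 was the gene of the group that passed the test between the ages, and it was higher in adult ChP. Cldn2 was at 146, 145 and 236 FPKM in adult replicates 1, 2 and 3 and at 64.8, 61.7 and 79.3 FPKM in E16.5 replicates 1, 2 and 3. The groups did not overlap, and adult replicate 3 was the highest. Mean levels of Cldn2 were 176 ± 52.1 FPKM for adult ChP and 68.6 ± 9.39 FPKM for E16.5 ChP (SD over 3 samples per age). On the log2(FPKM + 1) scale the change, adult minus E16.5, was 1.32 with a standard error of 0.30 (limma adjusted p = 0.0368), or 2.49-fold, a scale that understates changes of genes at low FPKM. On that scale the median of all genes tested changed by -0.86, so Cldn2 stood 2.17 above it. Of all genes tested 2.12% were called with an adult level above that at E16.5 and 8.83% with one below it. Cldn2 stayed higher in adult in all 17 alternatives but was called in 9 of them. It was not called, for example, when each sample was rescaled to the same sum of FPKM (a log2 change of 0.49, limma adjusted p = 0.322), without adult replicate 1 (limma adjusted p = 0.0545), or without E16.5 replicate 1, 2 or 3 (limma adjusted p = 0.114, 0.118 and 0.0835). In a bulk sample, fewer cells of a type and less mRNA per cell cannot be told apart.

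Cldn1, the other abundant claudin, had overlapping levels at the 2 ages. It was at 94.4, 63.9 and 52.2 FPKM in the adult replicates and at 114, 97.4 and 73.2 FPKM in the E16.5 replicates. Adult replicate 1 lay above E16.5 replicate 3, and the lowest values were those of adult replicates 2 and 3. The log2 change was -0.45 with a standard error of 0.34 (limma adjusted p = 0.390). It was called lower in adult when samples were rescaled to the same sum of FPKM (-1.27, limma adjusted p = 0.0365). At that setting 3238 of the 11601 genes tested were called lower in adult. With Mir6236 left out of the sum Cldn1 was not called (-0.61, limma adjusted p = 0.240), and its change was 0.02 after quantile normalization.

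The remaining claudins were low or listed at 0 in most samples. Cldn3 was at 0, 7.98 and 40.4 FPKM in the adult replicates and at 8.27, 3.34 and 3.39 FPKM in the E16.5 replicates. The adult samples thus held both the lowest and the highest value, and the E16.5 samples lay between. From the steps of single reads, the adult values stood for about 0, 75.1 and 130 reads and the E16.5 values for about 111, 55.6 and 52.1 reads. The log2 change of Cldn3 was 0.36 with a standard error of 1.29 (limma adjusted p = 0.866). It was -0.90 without adult replicate 3 and 1.78 without adult replicate 1, whose value was an exact 0. Cldn3 is a single-exon gene on chromosome 5 (134986214 to 134987472) and shares 40 exonic bases with Wbscr25 on the opposite strand, and whether strand was used in quantification is not stated in the sources used here.

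Cldn5, the main claudin of brain endothelium, was listed at 9.48 FPKM in adult replicate 2 (about 102 reads) and at 0 in the other 5 samples. It passed the filter through this one sample and was not called (limma adjusted p = 0.435). No fold is given, since all E16.5 values were 0. The endothelial marker Tie1 was at 8.22 FPKM in adult replicate 2, at 0.147 FPKM in E16.5 replicate 3 and at 0 in the other 4 samples. Pecam1 was at 0.957 FPKM in adult replicate 2 and at 0 in the others. Over the 12 endothelial markers, of which 4 were tested, the summed level was 8.30 to 18.9 FPKM in the adult samples and 19.2 to 46.6 FPKM at E16.5. Its 2 most abundant genes were Kdr, at 0.435 to 36.7 FPKM over the 6 samples, and Egfl7, at 0 to 12.0 FPKM, while Sox17 was listed at 0 in every sample. The part of endothelial mRNA in the Cldn5 value was not tested.

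Cldn11 encodes a claudin found in, among other places, oligodendrocyte myelin and Sertoli cells. It was listed at 1.86 FPKM in E16.5 replicate 1 (about 39.4 reads) and at 0 in the other 5 samples. With a mean at or below 1 FPKM it was not tested. The oligodendrocyte marker Mag was at 1.40 FPKM in the same sample and at 0 in the others. Over the 10 oligodendrocyte markers, of which 4 were tested, the summed level was 4.86 to 73.0 FPKM in the adult samples, with 58.7 FPKM of Mbp in adult replicate 3, and 15.9 to 26.5 FPKM at E16.5. Cnp, the second of the 2 most abundant, was at 0 to 13.4 FPKM, and Opalin was listed at 0 in every sample. Over 12 markers of mesenchyme and meninges the summed level was 135 FPKM in E16.5 replicate 1, the highest of the 6 samples. The part of mRNA from these cells in the Cldn11 value was not tested.

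Ocln was higher in each adult sample than in each E16.5 sample, but the difference did not pass the test. It was at 52.9, 53.2 and 65.3 FPKM in the adult replicates and at 35.1, 41.2 and 46.6 FPKM in the E16.5 replicates. The lowest adult value, 52.9 FPKM, lay above the highest E16.5 value, 46.6 FPKM. The log2 change was 0.47 with a standard error of 0.30 (limma adjusted p = 0.321), or 1.33 above the median of all genes, and its sign turned to -0.34 when samples were rescaled to the same sum of FPKM. Its partner at tricellular contacts, Marveld2, was at 3.48, 7.26 and 0.343 FPKM in the adult replicates and at 7.29, 7.11 and 9.48 FPKM in the E16.5 replicates. Adult replicate 2 lay within the E16.5 range, while the value of adult replicate 3 stood for about 3.03 reads. The log2 change of Marveld2 was -1.28 with a standard error of 0.80 (limma adjusted p = 0.309), and it was -0.55 without adult replicate 3 and 0.19 after quantile normalization. Ocln (100496507 to 100552718) and Marveld2 (100595957 to 100616971) are neighbours on chromosome 13, both on the minus strand, 43238 bases apart with no protein-coding gene between them.

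Tjp1 differed in the direction opposite to Ocln, again without passing the adjusted threshold. It was at 20.6, 25.8 and 16.7 FPKM in the adult replicates and at 44.1, 44.7 and 63.5 FPKM in the E16.5 replicates. All adult samples lay below all E16.5 samples, with means of 21.1 ± 4.56 and 50.8 ± 11.01 FPKM (SD over 3 samples per age). The log2 change was -1.23 with a standard error of 0.36 (limma unadjusted p = 0.00993, adjusted p = 0.0671). This was 0.38 below the median of all genes tested, but 0.20 above it at a pseudocount of 0.01, and 31% of all genes tested had every adult sample below every E16.5 sample. Its direction held in all 17 alternatives, and it was called when samples were rescaled to the same sum of FPKM (-2.03, limma adjusted p = 0.0191). At that setting 3238 of the 11601 genes tested were called lower in adult. With Mir6236 left out of the sum Tjp1 was not called (limma adjusted p = 0.0634). F11r was at 18.5, 24.3 and 51.7 FPKM in the adult replicates and at 31.8, 27.4 and 20.7 FPKM in the E16.5 replicates. The adult range enclosed the E16.5 range, and the log2 change was 0.12 with a standard error of 0.47 (limma adjusted p = 0.875). Of the 50-base stretches in its exons 1.42% recur in other genes, while those of the other 8 genes had no such match.

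**Figure D1:**
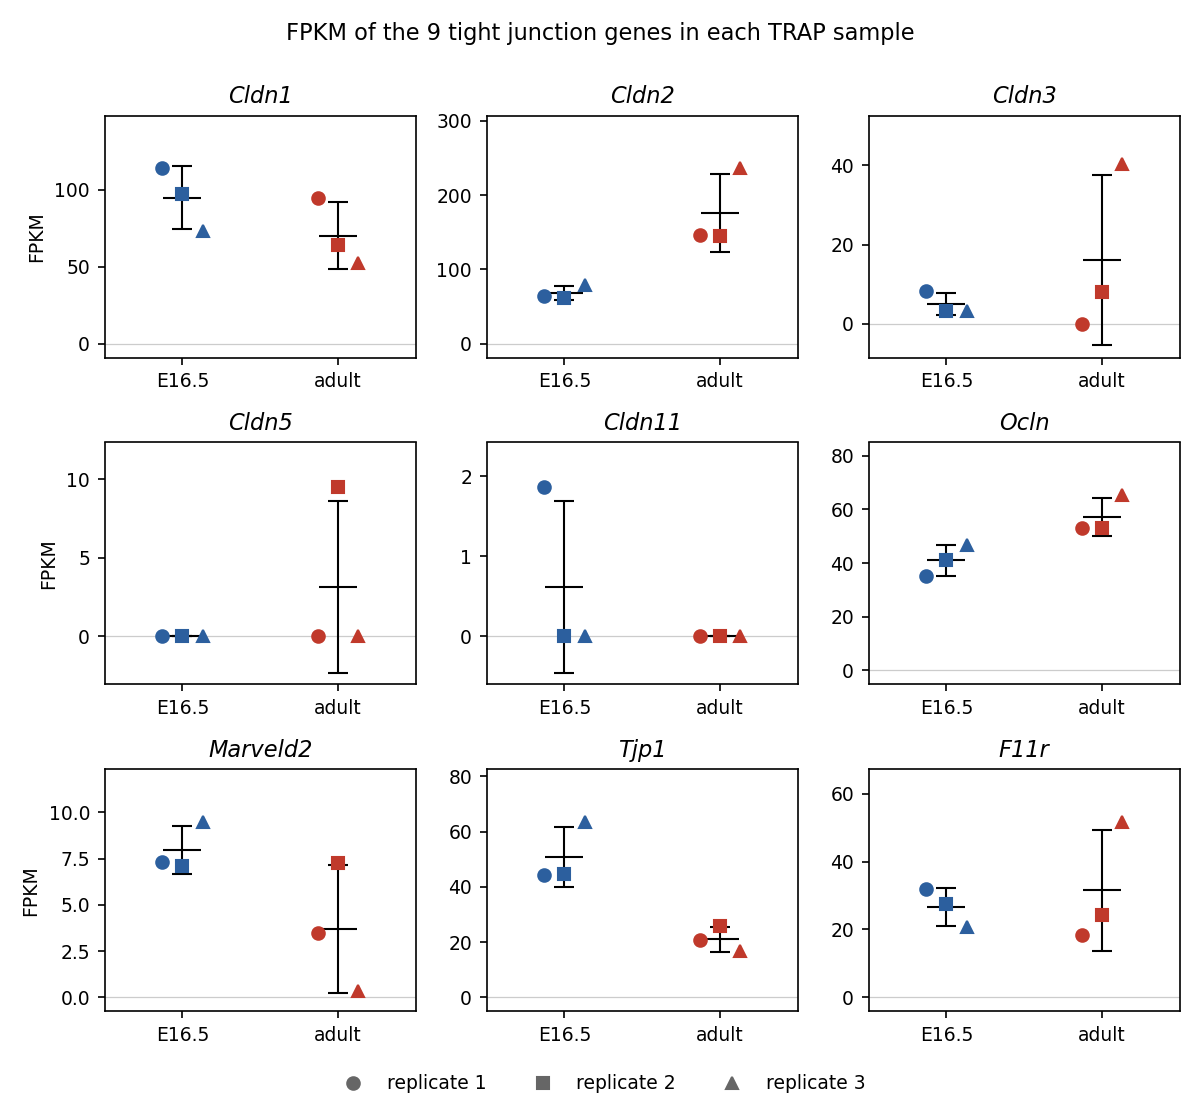
FPKM of each of the 9 tight junction genes (vertical axes, scaled per gene) in the 3 E16.5 samples (blue) and the 3 adult samples (red), with symbols for replicates and black bars for the mean and SD. Cldn2 and Ocln were higher in every adult sample and Tjp1 in every E16.5 sample, while Cldn5 and Cldn11 were above 0 in 1 sample each.

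Of the 9 genes, 8 passed the filter on low values. By limma 1 was called higher in adult ChP and 0 higher in E16.5 ChP, against 2.12% and 8.83% of all genes tested. Without adjustment 1 gene was higher in adult (Cldn2) and 1 was lower (Tjp1), against 5.34% and 25.9% of all genes tested. The levels of 2 genes (Cldn2 and Ocln) lay higher in every adult sample than in any E16.5 sample, against 7.39% of all genes tested. The median log2 change was 0.24 over the 8 genes and 0.12 over the 7 that were above 0 at both ages. Over all genes above 0 at both ages the median was -0.75. With 3 samples against 3, the smallest p of an exact permutation test is 0.1, which Cldn2, Ocln and Tjp1 reached.

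**Figure D2:**
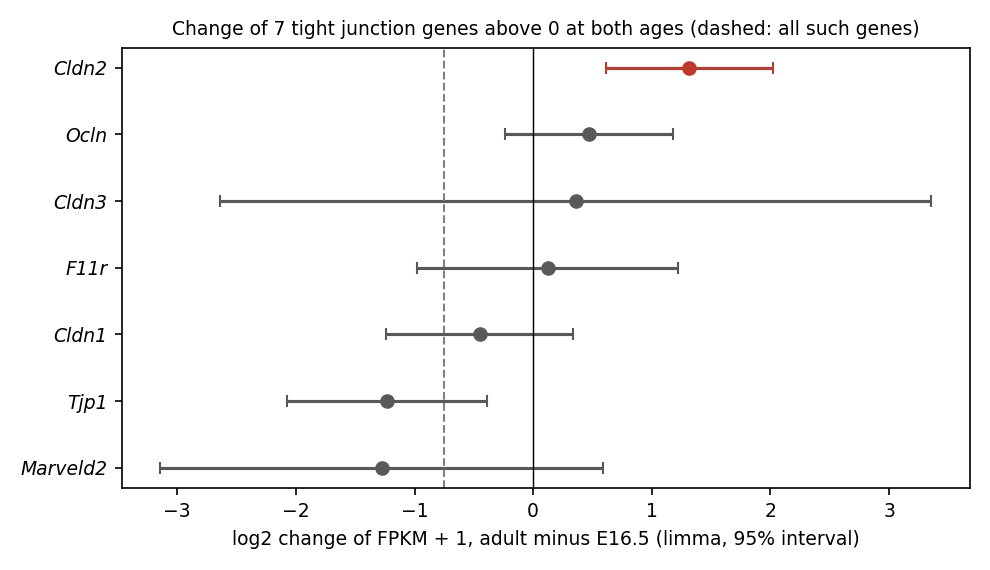
Change of log2(FPKM + 1), adult minus E16.5, with its 95% interval from limma, for the 7 genes above 0 at both ages. The interval of Cldn2 (0.61 to 2.02, red: called) and that of Tjp1 (-2.07 to -0.39) lay on one side of 0, and the dashed line marks the median of all genes above 0 at both ages, -0.75.

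The makeup of the claudins was compared within samples, because a share does not depend on the scaling between samples. Cldn2 took 60.8%, 64.1% and 71.8% of the summed FPKM of the 5 claudins in the adult replicates and 34.3%, 38.0% and 50.9% in the E16.5 replicates. Cldn1 took 39.2%, 28.2% and 15.9% in adult and 60.4%, 60.0% and 47.0% at E16.5. Both shares were separated between the ages without overlap. Cldn1 and Cldn2 made up most of the sum in every sample, so a larger share of either leaves less for the other. The lower Cldn1 share in adult is therefore not separate evidence of a lower Cldn1 level. The mean share of Cldn2 was 65.6% ± 5.66 in adult and 41.0% ± 8.71 at E16.5 (SD, n = 3 each), a difference of 24.5 percentage points (two-sided exact permutation p = 0.1, 0.25 adjusted over the 5 claudins). The mean share of Cldn1 was 27.8% ± 11.7 and 55.8% ± 7.63 (SD, n = 3 each), a difference of -28.0 percentage points with the same exact p. Cldn3 took 0% to 12.3% in adult and 2.06% to 4.38% at E16.5. The table holds 32 genes with a numbered claudin symbol, without the claudin domain genes Cldnd1 and Cldnd2, of which 21 were listed at 0 in every sample, and the 5 described here made up 80.4% to 98.8% of their summed FPKM.

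**Figure D3:**
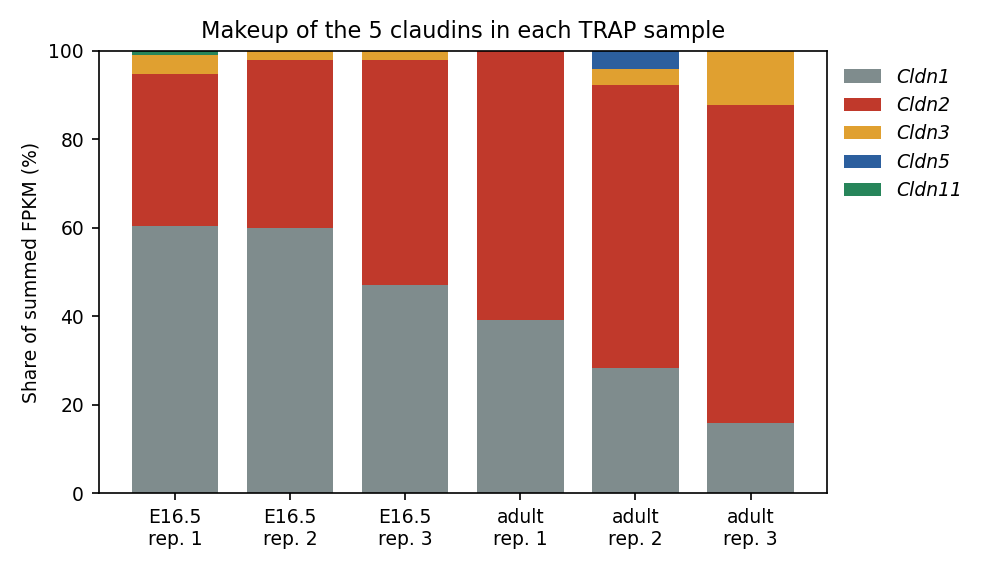
Share of each of the 5 claudins in their summed FPKM (percent, stacked bars) in each E16.5 and adult sample. Cldn2 (red) took 34.3% to 50.9% at E16.5 and 60.8% to 71.8% in adult, and Cldn1 (grey) 47.0% to 60.4% and 15.9% to 39.2%.

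Ratios between pairs of the genes give the same values on a scale that needs no common depth, and 4 were chosen after the values had been seen. Cldn2 to Cldn1 was 1.55, 2.27 and 4.52 in the adult replicates and 0.568, 0.633 and 1.08 in the E16.5 replicates. Ocln to Tjp1 was 2.57, 2.06 and 3.90 in adult and 0.796, 0.922 and 0.734 at E16.5. Cldn2 to Tjp1 was 7.10, 5.62 and 14.1 in adult and 1.47, 1.38 and 1.25 at E16.5. None of these ratios overlapped between the ages, and the mean log2 ratio was higher in adult by 1.78, 1.75 and 2.60. The fourth, Ocln to Marveld2, also did not overlap, at 7.33 to 191 in adult and 4.81 to 5.80 at E16.5, and its highest value rests on the 3.03 reads of Marveld2. Each of the 4 had a two-sided exact permutation p of 0.1, and since the pairs were picked for their difference these p describe the values and test nothing.

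The order of the levels also differed between the ages. In adult the mean FPKM fell in the order Cldn2, Cldn1, Ocln, F11r, Tjp1, Cldn3, Marveld2, Cldn5 and Cldn11. The range of Cldn2 lay above that of Cldn1 and the range of Ocln above that of F11r, while all other neighbours in this order overlapped. At E16.5 the order was Cldn1, Cldn2, Tjp1, Ocln, F11r, Marveld2, Cldn3, Cldn11 and Cldn5. There Ocln lay above F11r, F11r above Marveld2 and Cldn3 above Cldn11 without overlap, while the ranges of the other neighbours overlapped. Within each sample Cldn2 was above Tjp1 at both ages, Ocln was above Tjp1 in 3 of 3 adult samples, and Tjp1 was above Ocln in 3 of 3 E16.5 samples. Among the 11601 genes tested, Cldn2 stood at percentile 97.3 to 98.6 of the levels in the adult samples and 88.8 to 92.4 in the E16.5 samples. These percentiles cannot be compared between the ages, because more genes were listed at 0 in the adult samples, which lifts any gene above 0. Marveld2 was at percentile 41.0 in adult replicate 3 (0.343 FPKM) and at 36.1 in E16.5 replicate 1 (7.29 FPKM).

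**Figure D4:**
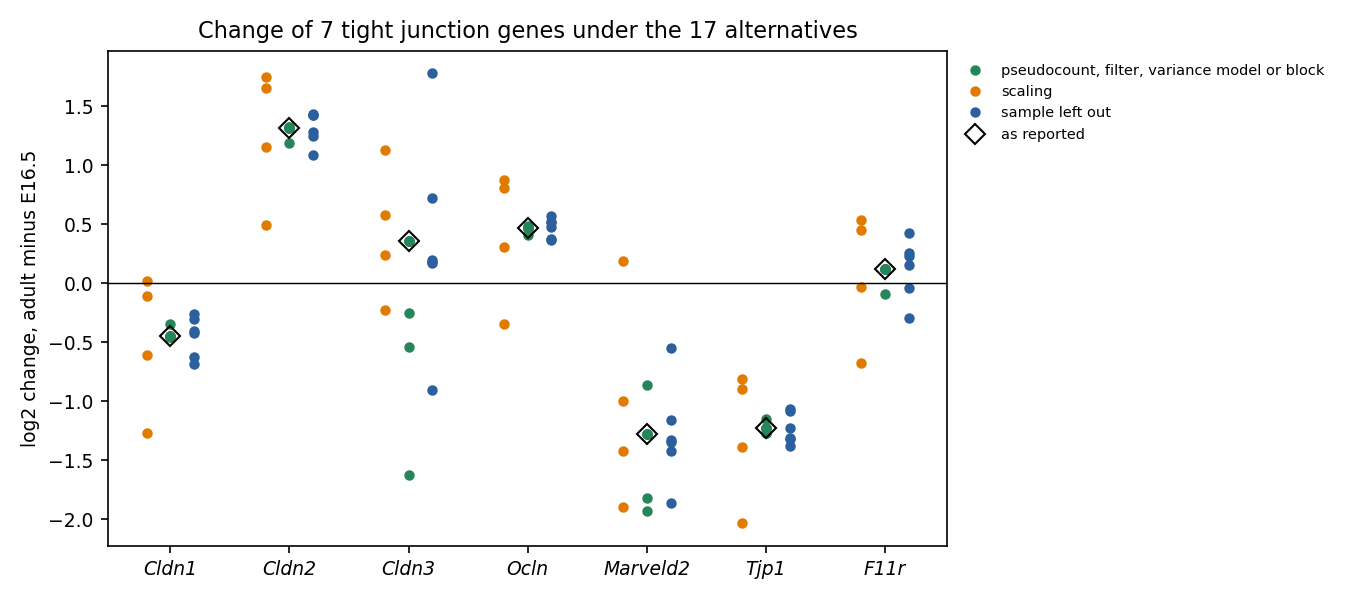
Change of log2(FPKM + 1), adult minus E16.5, as reported (diamonds) and under the 17 alternatives (dots by kind of choice) for the 7 genes above 0 at both ages. Cldn2 stayed above 0 (0.49 to 1.75) and Tjp1 below 0 (-2.03 to -0.81), while Cldn1, Cldn3, Ocln, Marveld2 and F11r had values on both sides of 0.

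Other genes of the junction were read from fixed lists with the same fit. The table holds 79 such genes. Tests covered 58 of them, and limma called 1 gene as higher in adult (Amotl1) and 5 as higher in E16.5 ChP, or 3 and 15 without adjustment. The shares over all genes tested were 2.12% and 8.83%, and 5.34% and 25.9% without adjustment, so that these counts lay near the background. Their median log2 change was -0.74, near that of all genes tested. Of the 8 other claudin genes tested, limma called none, and Cldn19 alone (1 gene) fell under an unadjusted p of 0.05. Cldn19 was listed at 0 in every adult sample and was at 3.11, 4.73 and 1.73 FPKM in the E16.5 replicates (limma adjusted p = 0.0613). It passed the filter through its E16.5 values alone, and an exact 0 can be a failed estimate. Cldn12 was at 3.89 to 6.31 FPKM in adult and 1.88 to 3.58 FPKM at E16.5, and Cldn9 was at 0 to 7.82 FPKM and 2.06 to 12.0 FPKM. Cldn10 was at 0 in the adult samples and at 5.02, 0 and 21.2 FPKM at E16.5. Cldn20 was above 0 in adult replicate 2, at 12.6 FPKM, and Cldn34c1 in E16.5 replicate 1, at 11.2 FPKM. The claudin domain genes Cldnd1 and Cldnd2 were at 2.31 to 16.7 FPKM and at 0 in the adult samples, and at 5.19 to 15.2 and 0 to 15.3 FPKM at E16.5.

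Among 21 other scaffolds and polarity proteins, 1 was called in each direction, and both belong to the angiomotin family, whose members bind actin and Patj at junctions. Amotl1 rose to 72.7, 40.4 and 72.0 FPKM in the adult replicates from 14.6, 17.6 and 24.9 FPKM in the E16.5 replicates (log2 change 1.63, standard error 0.40, limma adjusted p = 0.0437). Amotl2 was at 6.33, 5.57 and 1.15 FPKM in adult and at 39.5, 43.8 and 46.5 FPKM at E16.5 (log2 change -3.23, standard error 0.59, limma adjusted p = 0.0203). Neither gene overlapped between the ages. Of the 21 genes, 3 were higher in every adult sample and 8 lower, against 7.39% and 31% of all genes tested. Amotl1 was called in 7 of 17 alternatives and Amotl2 in 14. Without adult replicate 1 or 3, or any E16.5 replicate, Amotl1 was not called, with an adjusted p up to 0.184 over all alternatives. Of 7 other membrane proteins tested, limma called none, and 1 fell under an unadjusted p of 0.05 with a higher E16.5 level. Of all genes tested 25.9% did so.

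Of 11 regulators tested, limma called 2 as higher in E16.5 ChP and 0 as higher in adult ChP, or 4 and 0 without adjustment, beside the 8.83% and 25.9% of all genes that were higher at E16.5. Marcks, an actin-binding substrate of protein kinase C, was at 0, 1.47 and 0 FPKM in the adult replicates and at 40.4, 25 and 22.9 FPKM in the E16.5 replicates (log2 change -4.45, limma adjusted p = 0.0108). Cdc42, a small GTPase of cell polarity, was at 56.3, 68.5 and 106 FPKM in adult and at 235, 193 and 212 FPKM at E16.5 (log2 change -1.50, limma adjusted p = 0.0274). Both were lower in every adult sample, as were 31% of all genes tested. Of 11 adherens junction genes tested, limma called 2 as higher in E16.5 ChP and 0 as higher in adult ChP, or 4 and 1 without adjustment, beside the same shares of all genes. Ctnna1, the alpha-catenin of epithelia, was at 76.2, 109 and 63.3 FPKM in adult and at 173, 246 and 259 FPKM at E16.5 (log2 change -1.45, limma adjusted p = 0.0308). Ctnna2, the neural alpha-catenin, was at 0, 0.238 and 0 FPKM in adult and at 20.5, 5.17 and 11.5 FPKM at E16.5 (log2 change -3.46, limma adjusted p = 0.0262). Again no adult sample reached the E16.5 levels. Marcks and Ctnna2, with adult means of 0.490 and 0.0794 FPKM, passed the filter through their E16.5 values alone. Amotl2, Marcks, Cdc42, Ctnna1 and Ctnna2 lost their calls without E16.5 replicate 1, 2 or 3, with an adjusted p of at most 0.109 over all alternatives, and Cdc42, Ctnna1 and Ctnna2 also without adult replicate 1. Cdc42 and Ctnna1, each called in 9 of 17 alternatives, also lost their calls under median-ratio scaling, quantile normalization, limma without a trend and a replicate block. Ctnna2, called in 10, lost its call at a pseudocount of 0.01, under quantile normalization and with the block, and Marcks, called in 13, at a pseudocount of 0.01. Summed levels of neuronal and progenitor markers were 3.38 to 14.1 FPKM in adult and 30.7 to 117 FPKM at E16.5, with Sox2 at 0.145 to 26.4 FPKM and Tubb3 at 0 to 36.2 FPKM over the samples and Neurod6 and Eomes at 0 in all, and their part in the Ctnna2 and Marcks values was not tested.

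**Figure D5:**
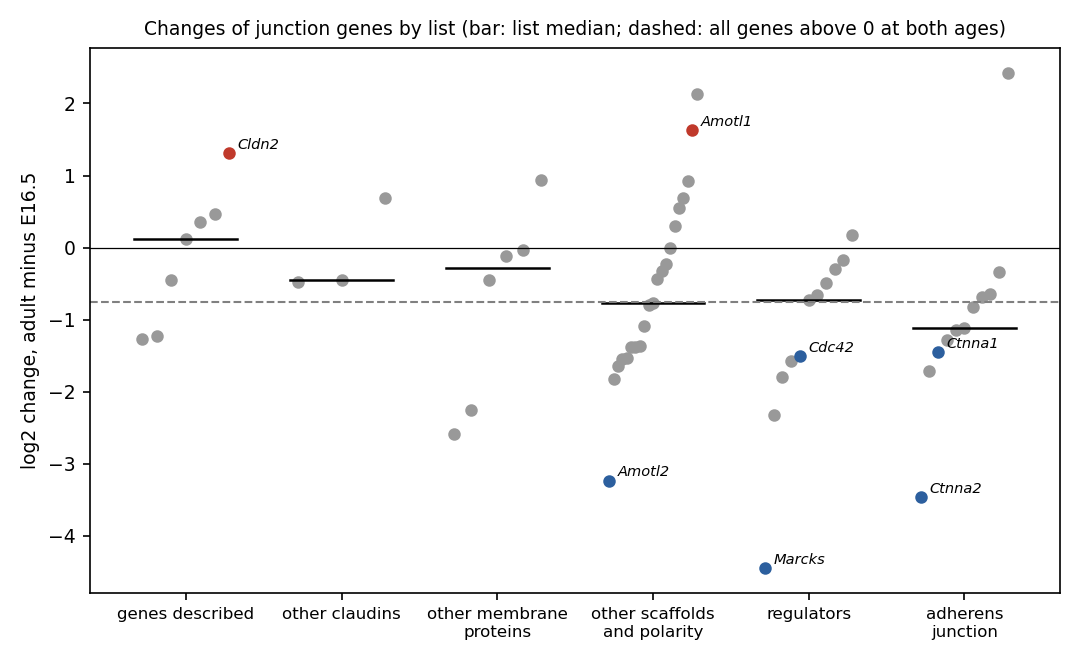
Change of log2(FPKM + 1), adult minus E16.5, of each gene tested and above 0 at both ages, in the tight junction genes described and 5 lists of other junction genes (red: called higher in adult, blue: called higher at E16.5, grey: not called). Black bars are list medians (0.12 for the genes described, -0.77 for other scaffolds, -1.11 for the adherens junction), and the dashed line is the median of all genes above 0 at both ages, -0.75.

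Markers of other cells that the TRAP samples could hold were read beside these genes. By limma 0 of 4 endothelial, 0 of 7 neuronal and 0 of 3 macrophage markers tested were called. Without adjustment 1, 2 and 0 of them had a p under 0.05. Of 4 oligodendrocyte markers tested, 1 (Ermn) was called, and 2 fell under an unadjusted p of 0.05, each with a higher E16.5 level. Ermn was at 0 in every adult sample and at 6.72, 7.75 and 3.78 FPKM in the E16.5 replicates (limma adjusted p = 0.0297). It passed the filter through its E16.5 values alone. Of all genes tested, 2.12% were called with more in adult and 8.83% with less, or 5.34% and 25.9% without adjustment. The summed level of 10 markers of ependyma and motile cilia was 286 to 448 FPKM in adult and 1803 to 2185 FPKM at E16.5, and 4 of 6 tested were called higher at E16.5. Its most abundant genes were Cfap126, at 64.3 to 106 FPKM in adult and 1007 to 1199 FPKM at E16.5, and Rsph1, at 86.7 to 257 and 365 to 545 FPKM, while Spag6l was listed at 0 in every sample. Markers of mesenchyme and meninges summed to 13.3 to 22.3 FPKM in adult and 73.3 to 135 FPKM at E16.5. Of 7 tested, 2 were called higher at E16.5. Crabp2, which passed the filter through its E16.5 values alone, was at 0 in adult and 14.7 to 65.9 FPKM at E16.5. Pdgfra was at 2.2 to 34.9 FPKM over the samples, and Slc47a1 was at 0 in all. The 10 macrophage markers summed to 0.0695 to 6.82 FPKM in adult and 0.584 to 8.42 FPKM at E16.5, with C1qa at 0 to 6.98 FPKM and Csf1r at 0.0695 to 3.58 FPKM, and 5 of them (Aif1, C1qc, Lyve1, Tyrobp and Fcer1g) at 0 in every sample. Of the 12 markers of ChP epithelium, 4 were higher in the adult samples and 2 in the E16.5 samples by limma. The 4 include Ttr, whose E16.5 values of 0 can be failed estimates. The part of these cells in the values of Cldn2, Ocln and Tjp1 was not tested.

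Cldn2 had the highest mean FPKM and the largest absolute log2 change of the 8 genes tested at a pseudocount of 1 and the deposited scaling, just above that of Marveld2. At a pseudocount of 0.1 the changes of Marveld2 (-1.82) and of Cldn5, listed at 0 in every E16.5 sample, were larger than that of Cldn2 (1.33). At the same sum of FPKM that of Tjp1 (-2.03) was the largest. The genes with the most similar pattern were sought for Cldn2. Over the 6 samples, Pearson's r of log2(FPKM + 1) with Cldn2 was highest for 4932438H23Rik (0.994), Intu (0.990) and Cachd1 (0.990), out of 81 genes above 0.95. Intu, a planar cell polarity effector needed for cilia, was at 29.9, 32.1 and 51.8 FPKM in the adult replicates and at 13.8, 12.3 and 13.5 FPKM at E16.5. Like Cldn2, it was highest in adult replicate 3. The 6 points share libraries and ages, and r describes these samples.

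In the GENCODE annotation of GRCm38, the build of the reads' alignment (mm10), Cldn2 (chromosome X, 139800828 to 139811386) has 2 exons in its longest coding transcript, Tjp1 (chromosome 7, 65296165 to 65527781) has 28, Ocln has 9 and Marveld2 has 7. Cldn1 (chromosome 16, 26356642 to 26371841) and Cldn5 (chromosome 16, 18776847 to 18778262) share a chromosome, as do Ocln and Marveld2. Cldn11 is at 31149920 to 31164324 on chromosome 3, and F11r at 171437535 to 171464603 on chromosome 1. The sequence printed for Tjp1 lies within the annotated span of the gene, since GENCODE annotates transcripts that start further upstream.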

How the data were processed

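Reads of 50 bases, single end, from libraries made with ribodepletion were aligned by the authors to mm10 with STAR 2.4.0 (submitters' processing notes), and the deposited FPKM values per gene were calculated by the authors with Cuffquant of Cufflinks. The annotation used is not given in the sources used here. Samples were grouped by the age in their labels (3 adult, 3 E16.5), and nothing states dates, batches, sex per pool or pairs. In R 4.3.3, limma 3.58.1 was fitted to log2(FPKM + 1) of the 11601 genes (of 24354) whose mean over the 6 samples exceeded 1 FPKM, without covariates and with eBayes moderated along an intensity trend. Benjamini-Hochberg adjustment covered all of these genes, at a threshold of 0.05. A count test was not used, since FPKM are not counts. Shares and ratios were compared with two-sided exact permutation tests. The fit was tested on simulated data. Depth was estimated in transcripts over 1000 bases, shortened by 200 bases to an effective length. Per library, 32 to 54 low values were used, of which 65.6% to 84.4% fell within 0.1 read of a whole number (20% by chance). Read numbers printed are estimates from these steps and cover no duplication of molecules. Promoters came from RefSeq (GRCm38.p6), where all 9 genes were matched, and annotation from GENCODE, where 95.6% of table symbols were matched. Analyses of figures and sequences ran in Python 3.11.15.

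The 9 genes and all lists were chosen with earlier results of these data known. Named are the 9 genes, from each junction list at most 4 called genes per direction, and the other claudins with a mean FPKM above 1. Also named are, per marker list, the 2 genes of highest mean FPKM and markers at 0 throughout, and the 3 genes most like Cldn2. Tie1, Pecam1, Erg, Plvap, Emcn, Tek, Cdh5, Flt1, Ramp2, Mag, Ermn, Kl, Prlr, Htr2c, Kcne2 and Mir6236 were added after their values were seen. Alternatives changed the pseudocount, filter, scaling, variance model, block and samples.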

Additional observations from a re-analysis of the deposited data

How the results depend on the processing

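Of the 9 genes, the 1 called higher in adult became 0 when samples were rescaled to the same sum of FPKM with or without Mir6236, when the trend was dropped from limma, with a replicate block, and by leave-one-out (0 to 1), and the 0 called higher at E16.5 became 2 at the same sum (0 to 0 by leave-one-out). Cldn2 had an adjusted p of 0.0730 at the same sum without Mir6236, 0.105 without a trend and 0.0625 with the replicate block. Replicate numbers did not pair the samples: same-numbered samples deviated together with r of 0.00089, 0.044 and 0.015. In the other junction lists, the 1 gene higher in adult became 0 with no filter, at the same sum with or without Mir6236 and with the replicate block, 2 without a trend and with FPKM above 1 in at least 3 samples, 3 under median-ratio scaling and quantile normalization, and 0 to 1 by leave-one-out. The 5 higher at E16.5 became 3 under median-ratio scaling, 20 at the same sum, 2 after quantile normalization, 2 with the replicate block and 0 to 9 by leave-one-out. Log2 changes turned sign for Cldn1 after quantile normalization (0.017), for Cldn3 at pseudocounts of 0.1 (-0.54) and 0.01 (-1.62), at the same sum (-0.22), with sample weights (-0.25) and without adult replicate 3 (-0.90), for Ocln at the same sum (-0.34), for Marveld2 after quantile normalization (0.19), and for F11r at the same sum (-0.68), the same sum without Mir6236 (-0.035), with sample weights (-0.094), without adult replicate 3 (-0.29) and without E16.5 replicate 3 (-0.043). The leave-one-out changes reached up to 1.78 for Cldn3 and 0.42 for F11r (each without adult replicate 1), and ran from -1.86 to -0.55 (without adult replicate 3) for Marveld2. By leave-one-out, differences in claudin shares ranged from 21.1 to 29.4 points for Cldn2, -33.7 to -22.0 for Cldn1, -1.11 (without adult replicate 3) to 5.03 for Cldn3, 0 to 2.09 for Cldn5 and -0.49 to 0 for Cldn11. The cause of these shifts was not tested. Over all genes tested, 246 were called higher in adult and 1024 lower, and these counts fell to 32 and 25 without E16.5 replicate 1, 27 and 16 without replicate 2, and 47 and 65 without replicate 3. The scaling moved the median of all genes tested, which was -0.58 under median-ratio scaling (348 higher in adult, 660 at E16.5), -1.48 at the same sum (119 and 3238) and -0.15 after quantile normalization (466 and 449). Relative to that median Cldn2 stood 1.90 to 2.23 higher and Tjp1 0.32 to 0.66 lower under the 4 scalings, but Tjp1 was 0.016 below it at a pseudocount of 0.1 and 0.20 above it at 0.01. In the adult libraries 1 read was worth up to 0.311 FPKM of Cldn3, 0.270 of Cldn5, 0.197 of Cldn11 and 0.113 of Marveld2, and why genes were listed at 0 was not tested.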
